A study of Mus musculus with 7 samples.

Results

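Nuclear genes that build mitochondria were examined in megakaryocyte progenitors of young and old mice: genes of the mitochondrial ribosome, of protein import, of the respiratory chain, and a few named partners. The deposited comparison lists 769 gene models, and 36 of them (4.68%) were members. Members were chosen by symbol (starting with Mrpl, Mrps, Timm, Tomm, Nduf, Sdh, Uqcr, Cox and a digit, Atp5, Slc25 or Coq, or equal to Mtif3, Hspa9, Grpel1, Samm50, Pitrm1, Mecr or Hadha) and selected on the authors' adjusted p, since the table ends at 0.1. The contrast that is described therefore also chose the rows, so no test of the members' direction or size was made. By role they were 14 genes of the mitoribosome and its translation factor, 10 of import and its chaperones, 10 of the respiratory chain and 2 of mitochondrial fatty acid metabolism. No Slc25 carrier and no Cox gene was listed.

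The cells were bone marrow cells negative for lineage markers and Sca1 and positive for cKit, CD150 and CD41, labelled as megakaryocyte progenitors, the cells committed to form megakaryocytes and then platelets. There were 3 libraries from young mice (3 months) and 4 from old mice (18 to 20 months in one label, 20 in another). Both ages had the same alleles, Flt3-Cre with the reporter mTmG, which switches from Tomato to GFP in cells that have, or descend from cells that had, expressed Flt3-driven Cre, and Tomato or GFP fractions were sorted. The strain is given as C57BL/6, and as C57BL/7 for 1 old library. Young titles carry 1 prefix and old titles carry 2, with 2 libraries each. By its column name the deposited old mean pools both old kinds, against 1 kind in young. A difference between the kinds would enter every ratio of old to young and cannot be told apart from age here. Only group means and the authors' fit are used here, so values per library, depth and the spread between libraries are unknown, and the labels do not say whether libraries came from separate mice. Of 16 megakaryocyte markers, 1 was listed, the platelet adhesion gene Selp, which was called higher in old, with means of 496 in young and 2358 in old in the authors' deposited table. A gene that is not listed has no value, so the labelled cell type was not checked.

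Mitochondria make most of their proteins from nuclear genes: precursors carrying a presequence pass the outer membrane translocase (TOM) and the inner membrane translocase (TIM), are pulled into the matrix by a chaperone motor, and lose the presequence there. The mitochondrial ribosome, itself built of imported proteins, translates the few proteins of the mitochondrial genome, which join imported subunits in respiratory complexes I, III and IV and in the ATP synthase, complex V. Megakaryocytes and platelets are known for a high demand on this energy supply. Many of these nuclear genes share promoter elements for the factors NRF1, GABPA (an ETS factor) and YY1.

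Promoter sequence was read from the genome, not from the counts that chose the members. It is shown first because it is a feature these genes may share. Windows of 300 bases (250 before to 50 after the start, RefSeq, GRCm38.p6) were matched for 29 of the 36 members. The following 110-base stretches end at the base before the start and carry the matches to the NRF1 core GCGCNTGCG on either strand within that distance; capitals mark NRF1 matches and, in Sdhd, also a match to the ETS core CCGGAAG on the reverse strand.
Ndufa8, chr2:36049339-36049448, minus strand: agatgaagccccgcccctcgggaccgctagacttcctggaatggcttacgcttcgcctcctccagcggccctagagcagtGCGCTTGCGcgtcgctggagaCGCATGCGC
Atp5k, chr5:108434400-108434509, minus strand: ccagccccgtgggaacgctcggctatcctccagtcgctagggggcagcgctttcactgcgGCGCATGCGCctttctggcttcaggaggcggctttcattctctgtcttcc
Mrpl17, chr7:105811088-105811197, minus strand: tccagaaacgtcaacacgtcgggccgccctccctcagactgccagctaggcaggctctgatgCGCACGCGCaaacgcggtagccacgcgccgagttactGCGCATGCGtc
Tomm20, chr8:126945922-126946031, minus strand: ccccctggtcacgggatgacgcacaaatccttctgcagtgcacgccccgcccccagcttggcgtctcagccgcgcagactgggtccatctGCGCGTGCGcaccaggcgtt
Sdhd, chr9:50603850-50603959, minus strand: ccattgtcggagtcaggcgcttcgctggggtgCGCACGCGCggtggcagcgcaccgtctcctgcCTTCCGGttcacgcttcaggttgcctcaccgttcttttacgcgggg

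These 5 genes come from the 3 larger roles: Ndufa8 and Sdhd from respiratory complexes I and II, Atp5k from complex V, Mrpl17 from the mitoribosome and Tomm20 from import. In Atp5k the forward and reverse matches overlap, as the core is nearly its own reverse complement, and Mrpl17 and Ndufa8 hold 2 separate matches each. An NRF1 match was found in 6 of 29 members (20.7%), the other being Mrps18b, with its match farther upstream, against 7.12% of 27025 genes with a window. Genes of the same symbol families that were not listed held it in 24.1% of 203 genes, and other gene models listed as lower in old held it in 19.5% of 236. The ETS core was present in 9 of 29 members (31.0%), in 31.0% of the unlisted family genes, in 32.6% of the other listed lower genes and in 9.93% of all genes. The members thus differed from all genes in these shares but lay close to their own unlisted relatives and to the other listed lower genes. Among 293 genes listed as higher, the NRF1 core was in 6.83% and the ETS core in 8.19%. The shares thus differed with the direction of the contrast that chose the members, but so did the CG pairs of the windows. Their median number was 21 in members, 20 in unlisted family genes and 23 in other listed lower genes. It was 8 in listed higher genes and 7 in all genes. Both cores hold the pair CG, and the part of base composition in these shares was not tested. The set of all genes is also wider than the 11778 gene models adjusted. A match is a run of letters, not evidence of binding.

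The YY1 core ATGGCGGC, on either strand, was found in 6 of 29 members (20.7%), in 10.8% of unlisted family genes, in 9.75% of other listed lower genes, in 2.39% of listed higher genes and in 2.60% of all genes. For every motif, the unlisted family genes were taken by symbol prefix alone, while the members include genes named singly. Grpel1 and Samm50 are such members with a YY1 match, so these 2 shares are not fully alike in their genes. The place of the YY1 core is shown in 24 bases around each match, with the match in capitals.
Mrps5, chr2:127587420-127587443, plus strand: gctccagcATGGCGGCggccgtac
Grpel1, chr5:36465186-36465209, plus strand: gggcagtcATGGCGGCtcggtgtg
Mrps11, chr7:78783013-78783036, plus strand: ctacgggcGCCGCCATctttctgt
Timm44, chr8:4275872-4275895, minus strand: cttccaacATGGCGGCggcagctc
Samm50, chr15:84192244-84192267, plus strand: ggtacaacATGGCGGCgctcggca
Mrps18a, chr17:46111010-46111033, plus strand: gttccaagATGGCGGCcctcaggg

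In Mrps5, Grpel1, Timm44, Samm50 and Mrps18a the match lay on the coding strand between 3 and 19 bases after the start. In 4 of these 5 genes (Samm50 was the exception) its first letters were an annotated start codon in GENCODE M21, so the match covers the beginning of the coding sequence. The Mrps11 match lay 110 bases before the start on the reverse strand. Other elements were also counted: the SP GC box GGGCGG was in 69.0% of members, 53.2% of unlisted family genes, 72.9% of other listed lower genes and 38.2% of all genes. In the same order, the CCAAT box was in 48.3%, 41.4%, 46.6% and 41.1%, and the E-box CACGTG in 6.90%, 11.8%, 15.7% and 8.09%. The ERR core CAAGGTCA was in 6.90%, 2.46%, 1.69% and 1.76%, and the TATA box TATAAA in 6.90%, 8.37%, 6.78% and 15.7%. Windows of members had a median GC content of 59.7%, against 59.0% in unlisted family genes and 61.0% in other listed lower genes. It was 56.0% in listed higher genes and 52.7% in all genes, and base composition differs with these shares. In 14 of the 29 members with a window none of the NRF1, ETS and YY1 cores was found. A gene could have several windows, as Mrpl48 did, and a match in any of them counted.

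**Figure D1:**
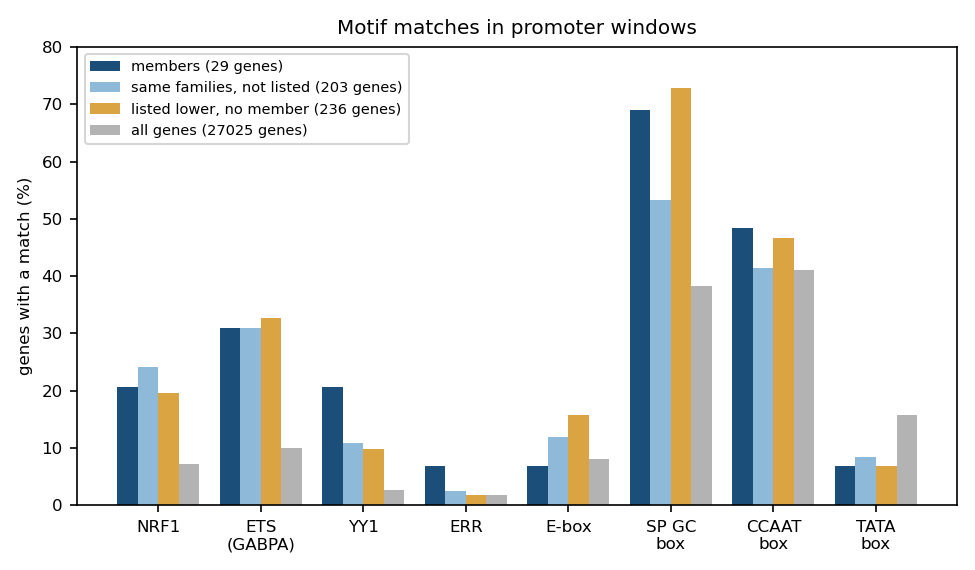
Share of genes (percent, y axis) with at least 1 match to each of 8 motifs in the promoter window, for members, unlisted genes of the same families, other listed lower genes and all genes. NRF1 and ETS shares of the members (20.7% and 31.0%) stand beside similar shares in the unlisted families (24.1% and 31.0%), and both are above all genes (7.12% and 9.93%).

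All 36 members had a lower mean in the old group, and 19 of them passed the authors' adjusted p under 0.05 (DESeq) and are called lower in the authors' deposited table. The background for that call was 1.57% of 11778 gene models lower in old, 4.13% in either direction and 2.86% listed as lower; the table's limit chose the members by this contrast, so nothing is read from the comparison. The members' young means ran from 371 to 10178 normalized counts with a median of 2196, and their old means from 203 to 6047 with a median of 1258 in the authors' deposited table. The ratio of old to young mean ran from 0.424 to 0.757 with a median of 0.583. Summed over the members, the mean normalized count was 103358 in young and 61536 in old, 40.5% less. The 301 other gene models listed as lower summed to 37.9% less in old, with a median log2 fold change of -0.68 against -0.78 for the members. Members made up 10.7% of all listed lower and 10.3% of all called lower gene models. Of all 337 gene models listed as lower, 185 were called, which is the background for the counts of calls by role below.

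In the same old libraries 16 of 19 neutrophil and monocyte markers were listed, all higher and 15 of them called, with summed means of 5539 normalized counts in young and 97563 in old in the authors' deposited table. None of those 16 markers was at 0 in young. Erythroid markers listed were Hbb-bs and Hbb-bt, summing to 977 in young and 6431 in old, and 4 of 8 eosinophil, basophil and mast cell markers summed to 27.2 and 1398, with Prg3 at 0 in young, in the authors' deposited table. Of 9 lymphoid markers, 2 were listed, at 3.26 and 42.4 in sum, in the authors' deposited table. Of 4 gate markers, Ly6a and Slamf1 were listed. Ly6a, the gene of Sca1, for which the cells were sorted as negative, was called higher in old, with means of 23.5 and 98.8. Slamf1, the gene of CD150, for which they were sorted as positive, had 79.3 and 228 and did not pass, per the authors' deposited table. Whether the RNA of these markers came from other cells or from the sorted progenitors themselves was not tested. Nor was the part of either in the members' lower means. In sorted bulk cells, fewer cells of a type and less RNA per cell cannot be told apart.

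**Figure D2:**
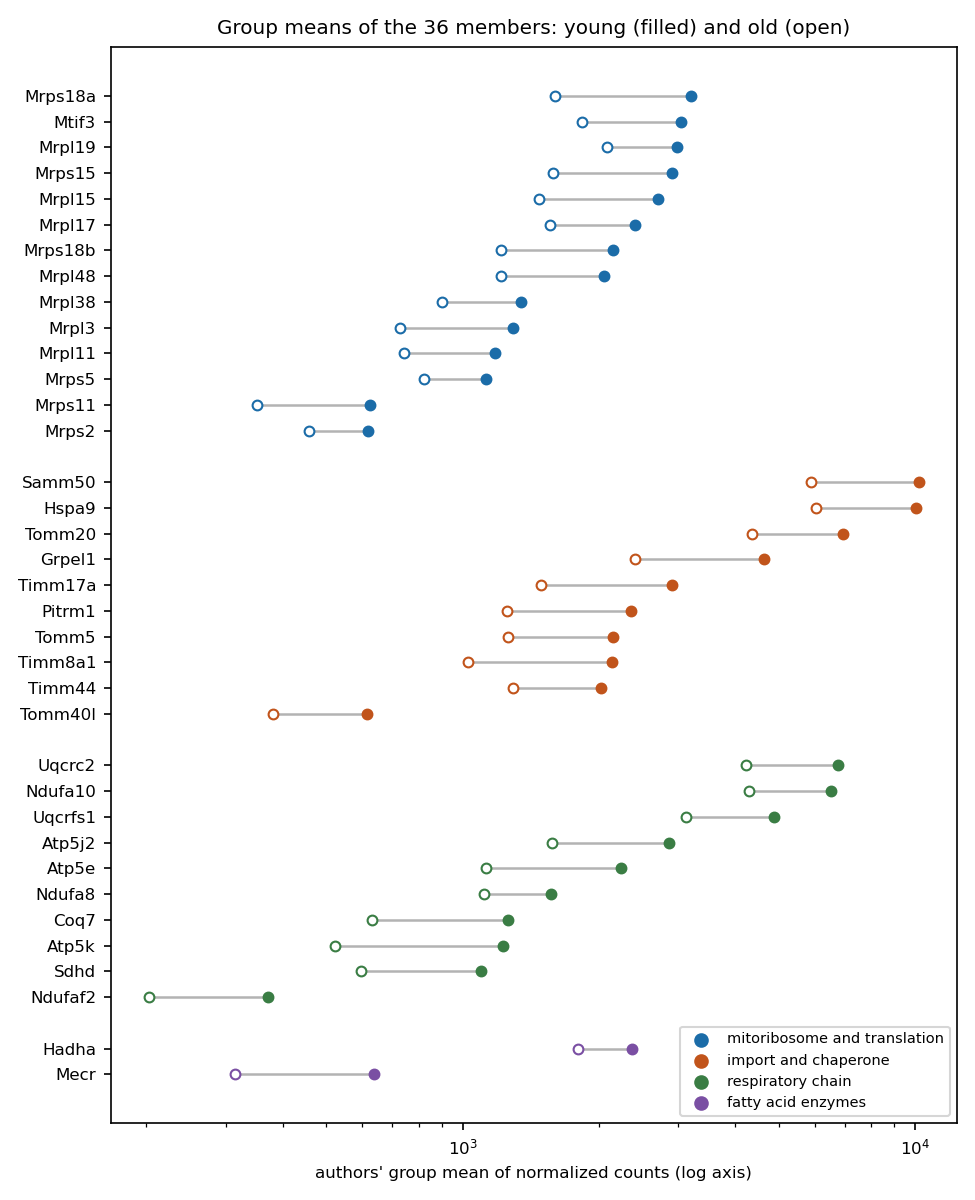
Authors' group mean of normalized counts (x axis, log scale) for each of the 36 members, grouped by role, with young filled and old open. Every open point lies left of its filled point, by ratios from 0.424 (Atp5k) to 0.757 (Hadha); the means carry no spread between libraries.

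Among genes of mitochondrial translation, 6 of 14 were called lower and the other 8 were listed between 0.05 and 0.1. The initiation factor gene Mtif3 had group means of 3033 in young and 1836 in old and fell by 0.72 (SE 0.11, DESeq adjusted p = 2.76e-08), the smallest adjusted p of all members, in the authors' deposited table. Its exons share 1505 bases with Gtf3a, a gene model also called lower, so these reads may be split between them. Mrps11, of the small subunit (chromosome 7, 78783119 to 78792989, plus strand), had means of 624 in young and 352 in old and fell by 0.83 on the log2 scale (SE 0.21, DESeq adjusted p = 0.00697), per the authors' deposited table. Mrps18a, an S18 protein found in the large subunit (chromosome 17, 46110986 to 46128910, plus strand), went from 3192 to 1602 and fell by 1.00 (SE 0.27, DESeq adjusted p = 0.0129), the largest change of this role in the authors' deposited table.

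Mrps5 had the means 1128 and 822 and fell by 0.45 (SE 0.14), Mrpl38 had 1345 and 900 and fell by 0.58 (SE 0.18), and Mrpl15 had 2697 and 1479 and fell by 0.87 (SE 0.27), per the authors' deposited table. These 3 are structural proteins, of the small subunit in Mrps5 and of the large subunit in the others. The 8 that did not pass were Mrpl48, Mrps15, Mrps18b, Mrpl17, Mrps2, Mrpl3, Mrpl11 and Mrpl19, with log2 fold changes from -0.87 (Mrps15, SE 0.30) to -0.44 (Mrps2, SE 0.16), per the authors' deposited table. Among the large subunit genes of these 8, Mrpl48 had group means of 2057 and 1217, Mrpl17 of 2407 and 1560, Mrpl3 of 1293 and 726, Mrpl11 of 1177 and 741, and Mrpl19 of 2975 and 2081 in the authors' deposited table. In the small subunit, Mrps15 had 2897 and 1586 and Mrps2, with the lowest young mean of the 14, had 619 and 457 in the authors' deposited table. Mrps18b, the S18 protein of the small subunit, had means of 2147 and 1216, near the ratio of its paralogue Mrps18a (0.567 and 0.502). By symbol, 6 of 29 annotated Mrps genes were listed, with a median log2 fold change of -0.83, and 7 of 49 annotated Mrpl genes, with a median of -0.67, in the authors' deposited table. Without the S18 pair, the 4 Mrps genes left, all of the small subunit, had a median of -0.64. No gene of 84 cytosolic ribosomal proteins was listed.

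Import genes held the most abundant members, and 6 of 10 were called lower, beside 185 of all 337 gene models listed as lower. Among those 6, Samm50, Hspa9, Grpel1 and Pitrm1 were named singly by the rule with earlier results known. The outer membrane gene Samm50 (chromosome 15, 84192241 to 84217267, plus strand), which inserts beta-barrel proteins such as the TOM channel, had the highest young mean, 10178, with 5895 in old, and fell by 0.79 (SE 0.22), per the authors' deposited table. Hspa9, the matrix Hsp70 that pulls precursors in, had 10053 and 6047 and fell by 0.73 (SE 0.17, DESeq adjusted p = 0.00278), per the authors' deposited table. Its nucleotide exchange factor Grpel1 had 4640 and 2410 and fell by 0.95 (SE 0.29), and Timm44, which ties Hspa9 to the translocase, had 2018 and 1293 and fell by 0.64 (SE 0.15, DESeq adjusted p = 0.00318), per the authors' deposited table. Hspa9, Grpel1 and Timm44 were thus each called lower. Hspa9 and Grpel1 were named singly by the rule, and of 16 annotated Timm genes only Timm44 was called. Nothing is therefore read from this about the motor as a unit.

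Pitrm1 (chromosome 13, 6548149 to 6580515, plus strand), the matrix protease that degrades cleaved presequences, had means of 2355 and 1255 and fell by 0.91 (SE 0.18, DESeq adjusted p = 6.78e-05), the smallest adjusted p among import genes in the authors' deposited table. Tomm40l, a paralogue of the TOM channel gene, was the least abundant import member, with 615 and 382, and fell by 0.69 (SE 0.22), per the authors' deposited table. The 4 other listed import genes did not pass: the presequence receptor Tomm20 (means 6936 and 4370), the small TOM subunit Tomm5 (2150 and 1261), the TIM channel subunit Timm17a (2907 and 1487) and the intermembrane space chaperone Timm8a1 (2140 and 1029), per the authors' deposited table. Their log2 fold changes were -0.67 (SE 0.23) for Tomm20, -0.77 (SE 0.26) for Tomm5 and -0.97 (SE 0.34) for Timm17a in the authors' deposited table. Timm8a1 had the second-lowest ratio of all members, 0.481, with a log2 fold change of -1.06 and an SE of 0.36 in the authors' deposited table. Compared with the annotation, 3 of 16 Timm and 3 of 10 Tomm genes were listed.

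Of 10 respiratory members, 5 were called lower, and complexes I, II, III and V were represented. In complex I the assembly factor Ndufaf2 had means of 371 and 203, the lowest normalized count of any member, and fell by 0.87 (SE 0.23, DESeq adjusted p = 0.0115), per the authors' deposited table. The accessory subunits Ndufa10 (6511 and 4286) and Ndufa8 (1567 and 1115) did not pass, at log2 fold changes of -0.60 (SE 0.22) and -0.49 (SE 0.18), per the authors' deposited table. Sdhd, the membrane anchor of succinate dehydrogenase, complex II (chromosome 9, 50596357 to 50603812, minus strand), had means of 1097 and 596 and fell by 0.88 (SE 0.25, DESeq adjusted p = 0.0186), per the authors' deposited table. In complex III the core protein gene Uqcrc2 had 6764 and 4238 and fell by 0.68 (SE 0.18, DESeq adjusted p = 0.0131), while Uqcrfs1, the Rieske iron-sulfur protein, had 4868 and 3125 and did not pass (-0.64, SE 0.22), per the authors' deposited table.

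Among the ATP synthase genes was the member with the lowest ratio of all. Atp5k, subunit e of the membrane part (chromosome 5, 108433244 to 108434448, minus strand), had means of 1230 and 521, a ratio of 0.424, and Atp5e, the epsilon subunit of the central stalk, had 2243 and 1128 in the authors' deposited table. Both were called lower: Atp5k fell by 1.24 (SE 0.39), the largest change of any member, and Atp5e fell by 0.99 (SE 0.32), per the authors' deposited table. Atp5j2, subunit f of the membrane part, had 2858 and 1579 and did not pass (-0.86, SE 0.30), and Coq7, a hydroxylase of coenzyme Q synthesis, had 1258 and 632, a ratio of 0.502, and did not pass in the authors' deposited table. A pseudogene of Atp5k is annotated, as are pseudogenes of Hspa9 and Mrpl48, and reads of these members may be shared with them.

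The 2 fatty acid genes were both called lower. Mecr (chromosome 4, 131843470 to 131867786, plus strand), the last enzyme in each round of mitochondrial fatty acid synthesis, had 637 and 315 and fell by 1.02 (SE 0.20, DESeq adjusted p = 7.07e-05), per the authors' deposited table. Hadha, the alpha subunit of the trifunctional protein of fatty acid oxidation, had 2372 and 1795 and fell by 0.41 (SE 0.11, DESeq adjusted p = 0.0148), the smallest change of any member in the authors' deposited table.

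**Figure D3:**
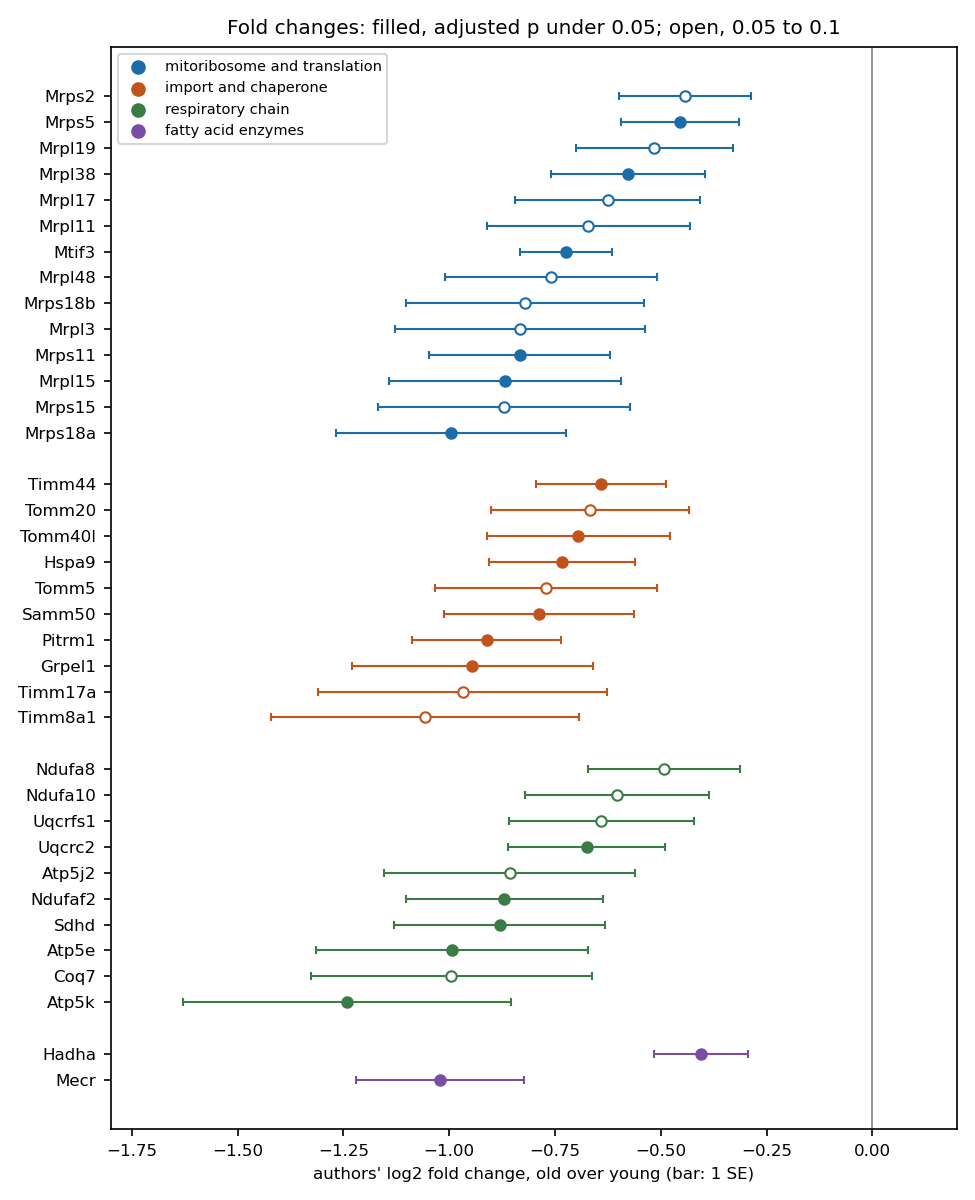
Authors' log2 fold change, old over young (x axis; bars are 1 SE), of the 36 members by role, with filled points for an adjusted p under 0.05 and open points from 0.05 to 0.1. All points lie below 0, from -1.24 (Atp5k) to -0.41 (Hadha), and the ranges of the roles overlap.

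Subgroups were compared by level and by ratio. The median young mean was 2102 normalized counts for translation, 2631 for import and 1905 for respiratory members, and the median ratio of old to young was 0.599, 0.583 and 0.549, in the authors' deposited table. The ranges of the ratio overlapped widely, 0.502 to 0.738 for translation, 0.481 to 0.641 for import and 0.424 to 0.712 for respiratory members. The order of these medians was not stable. Among members with a mean over 14 samples of at least 1000, it reversed. Their median log2 fold changes were -0.79 for translation, -0.78 for import and -0.68 for respiratory members. Summed over the members of a role, the old level was 39.9% below young for translation, 42.2% for import and 39.4% for the respiratory chain. Per kilobase of the annotated principal transcript, the median young level was 593 for translation, 1365 for import and 3108 for respiratory members; the lengths of the authors' own gene models were not given in the sources used here. On that scale Atp5e, at 5328 per kilobase, was the highest member and Tomm40l, at 131, the lowest. The order of the roles by level thus changed with length. The import level also depends on the genes that the rule names singly, among them Samm50 and Hspa9, with the highest young means of all members.

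The sizes of the members' changes are set beside their errors here as a description. The interval of 1.96 SE held the members' median log2 fold change in 33 of 36 members; the exceptions were Mrps5, Mrps2 and Hadha, each with a smaller change. A value of -1, a halving, lay inside the interval in 28 members. Across the 36 members the log2 fold change and its SE had a Spearman rho of -0.72, and across all 337 listed lower gene models -0.85; the points share libraries. That relation is partly set by the table, since a row needed a Wald score of at least 2.72 in size to be listed and 3.08 to be called, so a gene with a large SE could enter only with a large change. Level and log2 fold change had a rho of 0.08 across the members. At the threshold of a call, Atp5e lay just inside (DESeq adjusted p = 0.0494) and Mrpl48 just outside (0.0562, log2 fold change -0.76, SE 0.25), per the authors' deposited table.

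**Figure D4:**
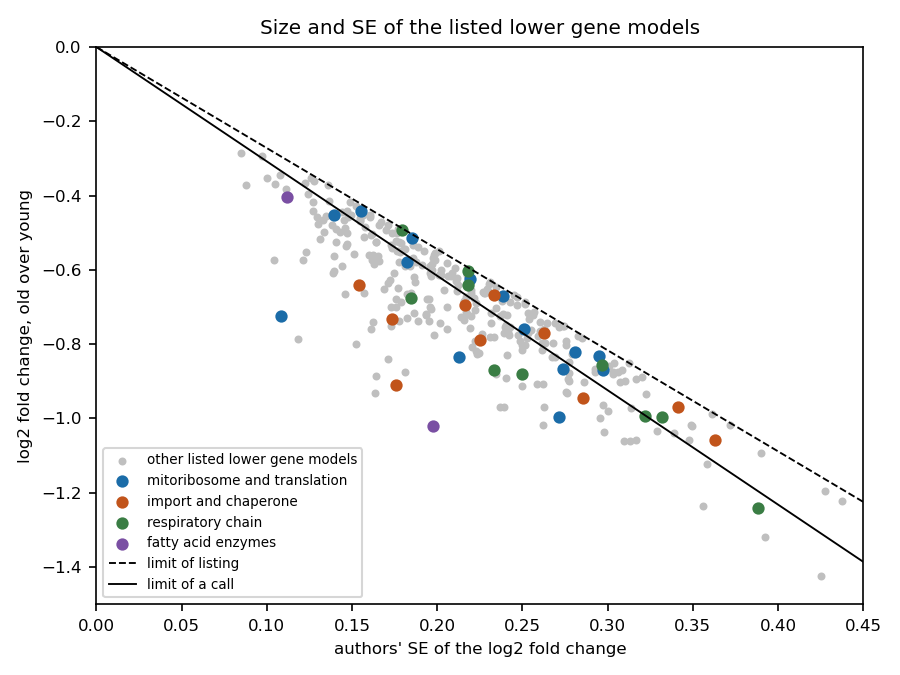
Log2 fold change (y axis) against its SE (x axis) for the members (coloured by role) and the other gene models listed as lower (grey; 6 of 301 lie outside the axes), with the limits of listing and of a call as lines. Members spread along the limit among the grey points, with Mtif3, Pitrm1 and Mecr farthest below it for their SE.

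The families differed in how many genes were listed. Over all symbols of the rule, 36 of 275 annotated protein-coding genes were listed (13.1%) and 19 called (6.91%). Over all 11778 gene models adjusted, 2.86% were listed as lower and 1.57% were called lower. The denominators differ, as annotated genes need not have been tested, so nothing is read from the comparison. By role, 17.7% of translation, 33.3% of import and 8.55% of respiratory genes were listed. The rule names 4 import genes singly, each of them listed and called, and these raise the shares of that role. Mtif3, Mecr and Hadha were also named singly, and each was listed and called. All of these names were chosen with earlier results known, so they raise the shares over all symbols too. By symbol prefix alone 12 members were called. None of 27 Cox genes of complex IV and none of 47 Slc25 carriers was listed, which does not show that they did not differ, as unlisted genes have no value and some may not have been tested. For the same reason nothing can be said of the 15 mitochondrially encoded genes, none of which was listed.

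**Figure D5:**
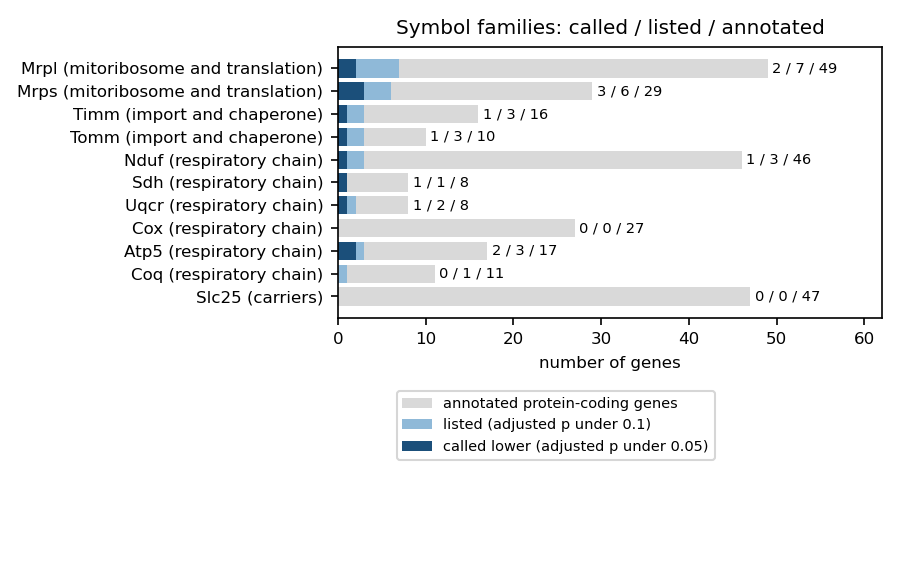
Number of genes (x axis) in each symbol family that are annotated as protein coding in GENCODE M21 (grey), listed (light) and called lower (dark), with the 3 numbers beside each bar. Mrpl and Mrps hold 7 and 6 listed genes, and Cox and Slc25 none.

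Mitochondrial genes outside the symbol rule were read from lists compiled from general knowledge, but with earlier results of these data known. Their counts are therefore a description. Over all 11778 gene models, 2.86% were listed as lower and 1.57% were called lower. Of 26 mitochondrial chaperones and proteases, 10 were listed, all with a lower mean in old, and 6 were called; 3 of these are members. The others called were Trap1, the mitochondrial Hsp90 (3744 and 2486), Pmpca, a subunit of the peptidase that removes presequences (3351 and 2094), and Htra2, an intermembrane space protease (5526 and 3777), per the authors' deposited table. The chaperonin pair that folds imported proteins had log2 fold changes of -0.80 (Hspd1, SE 0.26, DESeq adjusted p = 0.0534) and -1.06 (Hspe1, SE 0.35, DESeq adjusted p = 0.0545) and did not pass in the authors' deposited table. Also listed without passing were Phb2 and Parl, at -0.73 (SE 0.25) and -0.65 (SE 0.23), in the authors' deposited table.

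Of 13 genes that assemble the outer and inner membranes, 6 were listed and 5 were called, Samm50 among them. Immt and Chchd3, subunits of the complex that holds the cristae junctions and binds Samm50, fell by 0.74 (SE 0.16, DESeq adjusted p = 8.26e-04) and 0.67 (SE 0.22), per the authors' deposited table. Their partner Dnajc11 fell by 0.80 (SE 0.25) and the import motor protein Dnajc19 fell by 0.78 (SE 0.25), while Chchd4, of the intermembrane space import route, had -0.55 (SE 0.19) and did not pass in the authors' deposited table. In the translation and RNA list, 3 of 26 annotated genes were called: Mtif3, the elongation factor Tufm (-0.78, SE 0.24) and the ribosome assembly GTPase Eral1 (-0.56, SE 0.14), per the authors' deposited table. Cars2, at -0.61 (SE 0.20), was the single listed gene of 17 mitochondrial tRNA synthetases and did not pass in the authors' deposited table. The citric acid cycle list had 3 of 19 called, Sucla2 (-0.78), Dld (-0.74) and Fh1 (-0.77), each lower in the authors' deposited table. The fatty acid list had 3 of 20 called, the members Mecr and Hadha and the short-chain dehydrogenase Acads, which fell by 0.76 (SE 0.16), per the authors' deposited table. The dynamics list had 1 call, the outer membrane channel Vdac2 (-0.75, SE 0.24), per the authors' deposited table. No gene was listed among 12 annotated for mitochondrial DNA maintenance and transcription, 12 biogenesis regulators or 24 assembly factors and cytochrome c genes of the respiratory complexes, a list that leaves out the member Ndufaf2.

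Position in the genome did not tie the members together: they lay on 15 chromosomes, with at most 5 on one. Exons of 13 members overlapped those of another annotated gene, and for 9 that gene was protein coding, so their counts may include its reads. The largest such overlaps were 3304 bases of Tomm40l with Nr1i3, 1962 of Mrpl19 with Gcfc2 and 748 of Pitrm1 with Pfkp, besides that of Mtif3 with Gtf3a. In 8 members a protein-coding gene started within 1000 bases on the other strand, among them the pairs Hadha and Hadhb (86 bases between the starts) and Sdhd and Timm8b (98 bases), each of which joins mitochondrial genes. Mrps11 and Mrpl46, both mitoribosomal, overlap at their starts. None of these 8 partners was listed, so a change of the pair as a unit could not be examined.

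The scaling between libraries bears on every call, and could be varied here only as a shift of the whole table. If all log2 fold changes were shifted up by 0.1, the members called lower would be 10 in place of 19; with 0.2 there would be 3 (Mtif3, Pitrm1 and Mecr), and with 0.4 only Mecr. Over the whole table the same shifts took the calls lower in old from 185 to 70, 21 and 4 and the calls higher in old from 302 to 364, 406 and 425. A shifted row counted as called at the Wald score limit of the deposited calls, 3.08 in size, with no new adjustment. Gene models that were not listed have no values and could not enter, so the calls higher could draw only on listed rows, 432 of them listed as higher. No shift could turn a member's sign, since each was smaller than the smallest member change. Without the 13 members with overlapping exons, 10 calls were left.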

How the data were processed

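RNA from 3 young and 4 old libraries of sorted bone marrow cells was extracted with Trizol, and libraries followed the NEBNext Ultra protocol, per the labels. The submitters' processing notes name STAR, Bowtie2, DESeq and the build mm10. Not given in the sources used here are versions, counting, strand and annotation. A single table was deposited by the authors: group means of normalized counts (a scaled signal), a mean over 14 samples, of which the series holds 7, the log2 fold change with its SE, the Wald score, the p-value and the p-value after Benjamini-Hochberg adjustment, all per the file headers. The column name of the fold change names a shrunken (MAP) estimate, but the log2 ratio of the group means lay within 0.00564 of it in every member. Prg3, with a young mean of 0, has a log2 fold change of 20.4. The deposited values thus show next to no shrinkage in the members. Rows end at an adjusted p of 0.0993, and the authors' p-values give 11778 gene models adjusted. The number of libraries behind the old mean is not stated, and depth is unknown.

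The members, lists and motifs were chosen with earlier results of these data known. A call is an adjusted p under 0.05 of the authors' DESeq fit across all genes. Symbols were matched to GENCODE M21 (GRCm38, the build of mm10) for coordinates, overlaps and lengths (longest principal transcript), and promoter windows came from RefSeq. Every member was to be named, called members with both means, fold change and SE, and the 3 of each role with the smallest adjusted p with that value too; other genes come from the lists or from overlap with a member. Python 3.11.15, pandas 2.3.3 and scipy 1.17.1 were used, and the reading of the number tested and of calls under a shift was tested on simulated data. Alternatives were the adjusted p limit, a minimum mean, a narrower symbol rule, overlapping exons, the ratio of means and a shift of all fold changes. Since only group means exist, no count model was fitted.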

Additional observations from a re-analysis of the deposited data

How the results depend on the processing

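Of 53 alternative values for 7 results, 38 kept their direction and stayed within the spread of the members or within 1.5 times the count, and 15 moved. A change of sign was not possible by construction, since every member's change was larger than the largest shift and the other alternatives only select among members or restate the same means. The count of members called lower in old (19) was 6 at an adjusted p limit of 0.01 and 36 at 0.1, 11 at a mean of at least 1000 normalized counts, 12 with symbol prefixes alone and 10 without members with overlapping exons, each of which tests fewer genes or moves the limit. With all log2 fold changes shifted up by 0.1, 0.2 and 0.4 it was 10, 3 and 1. By construction of the shift, the median log2 fold change of members (-0.78) became -0.58 at 0.2 and -0.38 at 0.4, that of translation members (-0.74) became -0.54 and -0.34, that of import members (-0.78) became -0.58 and -0.38, and that of respiratory members (-0.86) became -0.46 at 0.4. No paired analysis was possible because the table holds group means only; for the same reason omission of single libraries, other normalizations and count filters were not run. Unknown depth limits what absence from the table can show.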

Other observations

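The deposited mean over 14 samples includes samples that are not analysed here. It lay below both the young and the old mean in 29 of the 36 members, with a ratio to the old mean from 0.821 to 1.14 and a median of 0.926 in the authors' deposited table. Among the 301 other gene models listed as lower the same held for 230 (76.4%), and among the 432 listed as higher for none.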
